A study of Mus musculus with 10 samples.

Results

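Cholesterol and fatty acid synthesis was followed through 30 listed genes, of the 47729 genes counted, in RNA of the RPE. The RPE, the retinal pigment epithelium, is a sheet of cells that nourishes the photoreceptors. The genes were taken from a fixed list and matched to the Ensembl identifiers of the counts: 18 sterol enzymes, 5 regulators and carriers, and 7 fatty acid genes. All 30 had enough counts to be tested. Each of 5 wild-type CD1 mice, an outbred strain, gave both eyes at postnatal day 40 (P40). The GFP control eye had received AAV-Best1-GFP, an adeno-associated virus that makes green fluorescent protein. The Nrf2 eye of the same mouse had received AAV-Best1-GFP and AAV-Best1-Nrf2, which carries the human coding sequence of Nrf2, a regulator of antioxidant and detoxifying genes. All 10 eyes thus carried the GFP vector, the Nrf2 eyes carried a further vector on top of it, and no eye carried a matched amount of another vector. The human Best1 promoter drives both vectors in the RPE.

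Animal cells make cholesterol from acetyl-CoA by way of mevalonate, farnesyl diphosphate, squalene and lanosterol, and make fatty acids from the same acetyl-CoA. Both branches are controlled by the sterol regulatory element binding proteins (SREBPs), membrane-bound transcription factors. The escort protein SCAP carries them out of the endoplasmic reticulum when sterols are scarce, and INSIG proteins hold them back when sterols are plentiful. The RPE handles large amounts of lipid, since it takes up shed photoreceptor membrane every day.

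RNA abundance is given as CPM, a gene's counts per 1000000 counts of its library. Differences are log2 fold changes, Nrf2 against GFP control, fitted in edgeR with the mouse as a block. The standard error (SE) is that of the 5 within-mouse differences, and a gene was called at an adjusted p under 0.05 over all 16362 genes tested. Library totals ran from 12298404 to 27310638 counts. Nfe2l2, the mouse gene for Nrf2, averaged 88.7 ± 12.7 CPM (SD over 5 control eyes) against 353 ± 53.6 CPM with Nrf2, a log2 fold change of 1.97 (SE 0.11, edgeR adjusted p = 0.000299), and how many of these reads came from the human sequence of the vector was not tested. Of 12 RPE markers, 11 averaged at least 51.2 CPM in control eyes (Mitf), while Best1 itself averaged 0.766 CPM. The summed RPE markers were lower in the Nrf2 eye of all 5 mice (12110 to 30770 against 23490 to 46470 CPM), with 6 of the 12 called lower and none higher. Summed macrophage and microglia markers were higher in all 5 (331.3 to 1682 against 159.5 to 280.3 CPM), with 9 of 10 called higher. The remaining marker, Csf1r, averaged 196 CPM in control and 142 CPM in Nrf2 eyes and was lower in 4 of 5 mice (edgeR adjusted p = 0.301). Rod markers summed to 19790 CPM (control) and 7635 CPM (Nrf2) in mouse 2, to 2907 and 64.32 CPM in mouse 4, and to 40.81 to 427.6 CPM in the other 6 libraries. In such bulk RNA, fewer cells of a type and less RNA per cell cannot be told apart. Summed skeletal muscle markers ran from 78.19 to 153.2 CPM in control and from 6.968 to 965.6 CPM in Nrf2 eyes. Some fits below take the mean log2 CPM of the rod or the muscle markers, not their sum, as a covariate. Apart from these fits, the part of all the markers above in the results that follow was not tested.

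The promoters of 4 of the genes are shown because the results return to them: Acss2 rose and Scap fell, Hmgcs1 is, of the listed genes with a promoter window, the only match to the sterol regulatory element core, and Mvk is a sterol enzyme with the same kind of match as Acss2. RefSeq (GRCm38.p6) gave 300-base windows around the start of 24 of the 30 genes. Scd1, Scd2, Fdft1, Fdps, Sqle and Stard4 had no window. Each sequence runs 5′ to 3′ up to the RefSeq start, or for Acss2 up to its more upstream GENCODE start, and capitals mark a match on the printed strand to TGACNNNGC, the core of the antioxidant response element that Nrf2 binds, or to TCACNCCAC, the core of a sterol regulatory element.
Acss2 promoter, chr2:155517793-155517947, + strand: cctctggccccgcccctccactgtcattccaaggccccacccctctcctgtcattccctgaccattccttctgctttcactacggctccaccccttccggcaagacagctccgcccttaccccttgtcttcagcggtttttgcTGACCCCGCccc
Mvk promoter, chr5:114444039-114444268, + strand: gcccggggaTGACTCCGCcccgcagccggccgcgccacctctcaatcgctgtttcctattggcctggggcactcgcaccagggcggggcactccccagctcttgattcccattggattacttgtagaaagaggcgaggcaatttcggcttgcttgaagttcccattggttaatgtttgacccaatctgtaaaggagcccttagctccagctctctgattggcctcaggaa
Hmgcs1 promoter, chr13:119690101-119690350, + strand: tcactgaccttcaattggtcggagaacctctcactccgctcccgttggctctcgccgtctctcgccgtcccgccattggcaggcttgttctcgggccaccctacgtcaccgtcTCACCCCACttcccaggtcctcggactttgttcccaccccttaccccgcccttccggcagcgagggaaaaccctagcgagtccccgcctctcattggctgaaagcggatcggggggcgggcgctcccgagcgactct
Scap promoter, chr9:110333038-110333287, + strand: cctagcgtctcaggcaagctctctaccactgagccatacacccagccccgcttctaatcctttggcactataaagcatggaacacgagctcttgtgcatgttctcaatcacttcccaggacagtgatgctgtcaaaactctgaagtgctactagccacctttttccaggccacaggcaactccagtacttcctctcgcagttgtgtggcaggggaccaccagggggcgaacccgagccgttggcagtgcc

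Searched on both strands, TGACNNNGC was found in 5 of the 30 windows of these 24 genes, those of Acss2, Mvk, Pmvk, Dhcr7 and Hsd17b7, and in 12.39% of all 32851 windows. In the Acss2 promoter the match TGACCCCGC began 107 bases before the RefSeq start, and in the Mvk promoter TGACTCCGC began 221 bases before it. In the GENCODE annotation the first match lies in an intron of Ggt7 and the second in the first exon of Mmab, both on the opposite strand. TCACNCCAC was found in 1 of the 30 windows, that of Hmgcs1, 137 bases before the start, and in 1.24% of all windows. None of these 24 genes held both motifs in its windows, so no matches overlapped. The printed Scap promoter holds neither motif, which says only that these letters are not in this window. Of the 5 genes with TGACNNNGC, Acss2 alone was called, where edgeR called 6.33% of all genes tested. The other 4 had log2 fold changes from -0.25 for Mvk to 0.13 for Hsd17b7.

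Scd1 and Acss2 rose and Scap fell in the Nrf2 eyes, and the other 27 genes did not pass the test. The calls were 2 of 30 higher, where 3.6% of all genes tested were higher, and 1 of 30 lower, against 2.73%. In all, 6.33% of genes tested were called. An unadjusted p under 0.05 was found for 8 of the 30 genes, against 19.1% of all genes. DESeq2 called 5 of the 30 (Fdft1 and Srebf1 in addition, both lower), against 9.25% of the genes it tested. Of the genes that rose, Scd1 puts the double bond into saturated fatty acids, and Acss2 turns acetate into acetyl-CoA.

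**Figure D1:**
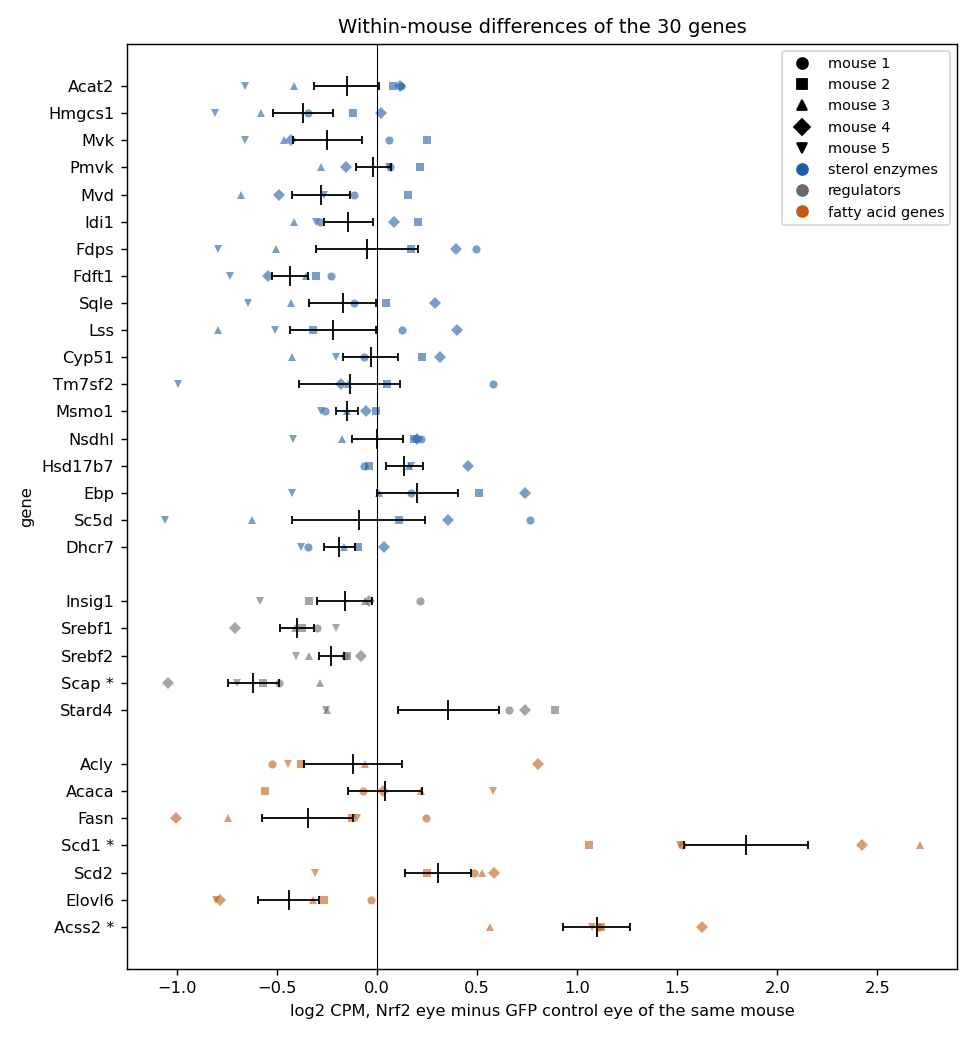
Difference in log2 CPM between the Nrf2 eye and the GFP control eye of the same mouse for the 30 genes, in pathway order. Symbols are single mice, and the vertical bar is the mean of the 5 within-mouse differences with its SE. Asterisks mark Scd1, Acss2 and Scap, the genes with an edgeR adjusted p under 0.05. The points of Scd1 and Acss2 all lie right of 0 and those of Scap all lie left of it, while most sterol enzymes have mice on both sides.

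Scd1, stearoyl-CoA desaturase, lies at chr19:44394455-44407879 on the minus strand (GRCm38). In mice 1 to 5 it measured 20.5, 17.6, 10.4, 10.7 and 11.1 CPM in the control eyes and 56.1, 37.1, 67.8, 60.5 and 34.0 CPM in the Nrf2 eyes. The lowest Nrf2 eye lay above the highest control eye. The means were 14.1 ± 4.67 and 51.1 ± 14.8 CPM (SD, n = 5), a ratio of 3.63, and the fitted log2 fold change was 1.84 (SE 0.31, edgeR adjusted p = 0.00736). Within mice the log2 difference ran from 1.06 in mouse 2 to 2.71 in mouse 3. The call held without each mouse in turn. With the mean log2 CPM of the rod markers as a covariate, the log2 fold change was 1.68 (edgeR adjusted p = 0.0533). Without mice 2 and 4, whose control eyes had the most rod RNA, it was 1.91 (edgeR adjusted p = 0.0726). Scd1 is also abundant in fat cells. The 8 adipocyte markers summed to 0.5586 to 2.156 CPM in control and 0.9563 to 1.7 CPM in Nrf2 eyes, with Lep at 0 in every library. The macrophage and microglia markers, summed above, were higher in the Nrf2 eye of all 5 mice. Which cells the Scd1 RNA came from was not tested. Of the 50-base stretches of its transcripts, 4.56% occur in another gene, most of them in Scd3.

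Acss2, the acetyl-CoA synthetase of cytosol and nucleus, lies at chr2:155517948-155585724 on the plus strand. Its control eyes measured 32.4, 32.0, 33.5, 24.8 and 23.1 CPM in mice 1 to 5, and its Nrf2 eyes 66.4, 70.3, 49.1, 80.4 and 51.9 CPM. These groups did not overlap either. The means were 29.2 ± 4.80 and 63.6 ± 13.1 CPM, a ratio of 2.18, and the fitted log2 fold change was 1.10 (SE 0.17, edgeR adjusted p = 0.00696). The smallest within-mouse difference was 0.57 in mouse 3 and the largest 1.63 in mouse 4. Leaving out mice 2 and 4 together gave 0.92 (adjusted p = 0.143), while the call held without each mouse alone and with the rod covariate. Acss2 shares 395 exon bases with Gss, glutathione synthetase, on the opposite strand, of its 10163 exon bases. Gss rose from 39.6 to 178 CPM (log2 fold change 2.12, SE 0.12, edgeR adjusted p = 0.000247), and Ggt7, a gamma-glutamyltransferase relative that shares 197 exon bases on the opposite strand, had a log2 fold change of 1.09 (edgeR adjusted p = 0.0501) and was higher in 5 of 5 mice. The antisense gene Acss2os shares a further 335 bases. Since the strand setting of the counting was not given, reads of the shared bases cannot be assigned to either strand here.

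Scap, the SREBP escort, lies at chr9:110333288-110384950. In mice 1 to 5 it measured 229, 210, 239, 287 and 185 CPM in control eyes and 155, 143, 193, 145 and 121 CPM in Nrf2 eyes. It was lower in the Nrf2 eye of every mouse, but the groups overlapped, since 193 CPM with Nrf2 in mouse 3 exceeds 185 CPM in the control of mouse 5. The means were 230 ± 37.8 and 152 ± 26.4 CPM, and the fitted log2 fold change was -0.62 (SE 0.13, edgeR adjusted p = 0.0284). The call was lost without each mouse in turn (log2 fold change -0.64 to -0.48, adjusted p from 0.0528 to 0.103), without the mouse block (0.0671), with the rod covariate (0.124) and without mice 2 and 4 (0.282). Scap shares 985 exon bases with the opposite-strand transcript 5830462I19Rik.

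**Figure D2:**
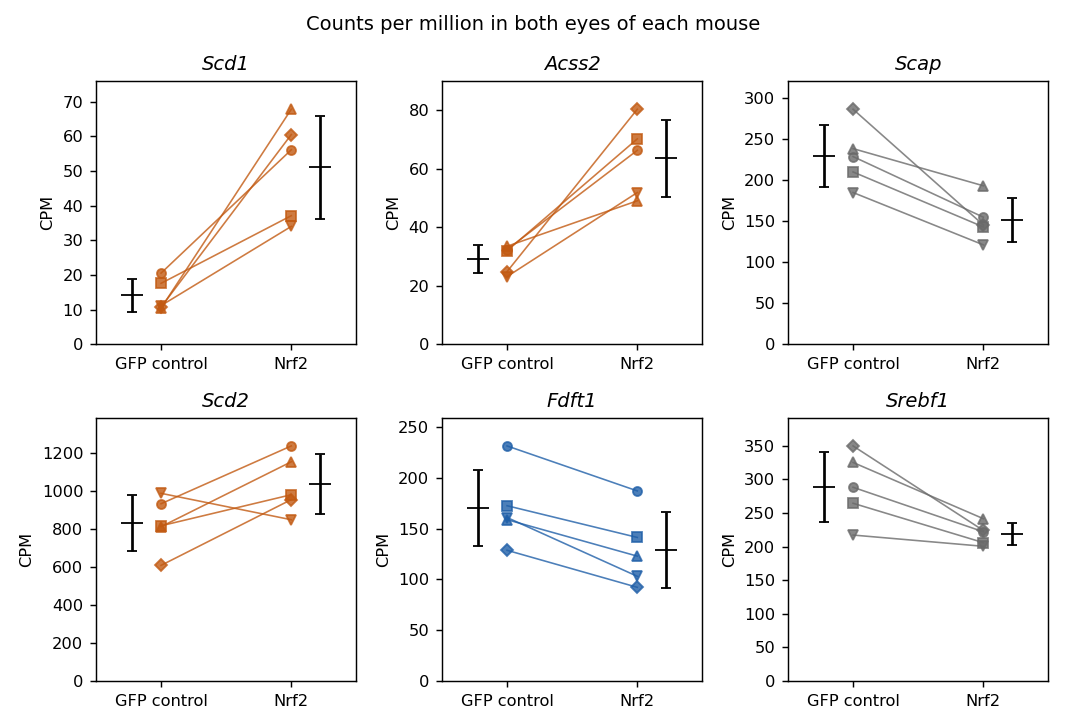
CPM of Scd1, Acss2, Scap, Scd2, Fdft1 and Srebf1 in the GFP control and Nrf2 eyes, with lines joining the eyes of a mouse and bars giving the mean and SD of 5 eyes. For Scd1 and Acss2 every Nrf2 eye lies above every control eye, and Scap, Fdft1 and Srebf1 are lower in the Nrf2 eye of every mouse with groups that overlap.

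Of the other regulators, none passed the test. Srebf1, which encodes the SREBP that favours fatty acid genes, measured 288, 264, 325, 350 and 217 CPM in control eyes of mice 1 to 5 and 222, 206, 242, 224 and 200.4 CPM in Nrf2 eyes. The Nrf2 eye was the lower in 5 of 5 mice, and the log2 fold change was -0.40 (SE 0.08, edgeR adjusted p = 0.0723, DESeq2 adjusted p = 0.0194). The spread of Srebf1 was narrower among the Nrf2 eyes (SD 16.3 CPM) than among the control eyes (SD 51.9 CPM), a description with no test. Srebf2, which encodes the SREBP that favours sterol genes, had a log2 fold change of -0.23 (SE 0.06, edgeR adjusted p = 0.23) and was lower in 5 of 5 mice. Insig1, which retains SCAP and is itself a classic SREBP target, measured 148 ± 82.3 and 140 ± 101 CPM, and its log2 fold change was -0.16 (edgeR adjusted p = 0.603). Stard4, a carrier that moves cholesterol between membranes, was the least abundant of the 5 at 8.77 and 11.7 CPM, and its log2 fold change was 0.36 (edgeR adjusted p = 0.504), higher in mice 1, 2 and 4 and lower in mice 3 and 5.

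None of the 18 sterol enzymes was called by edgeR in either direction, where it called 6.33% of all genes tested. DESeq2 called 1 of the 18, Fdft1, and 9.25% of the genes it tested, so both counts are near their background. Of their fitted log2 fold changes 15 were negative and 3 positive, with a median of -0.15 and a range from -0.43 to 0.20, beside a median of -0.01 over all genes tested. An unadjusted p under 0.05 was found for 2 of the 18, Hmgcs1 and Fdft1, against 19.1% of all genes. The edgeR adjusted p-values of the 18 ran from 0.0557 to 0.997.

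From acetyl-CoA to farnesyl diphosphate, all 7 fitted values were negative, with a median of -0.15. Hmgcs1, which makes HMG-CoA, measured 370, 228, 219, 158 and 291 CPM in control eyes and 277, 212, 145, 167 and 177 CPM in Nrf2 eyes of mice 1 to 5. Mouse 4 alone was not lower, and the log2 fold change was -0.37 (SE 0.15, edgeR adjusted p = 0.202). Mvd, the decarboxylase that makes isopentenyl diphosphate, had -0.28, and Mvk, which phosphorylates mevalonate, had -0.25. Acat2, the thiolase that joins acetyl-CoA units, and Idi1, the isopentenyl diphosphate isomerase, had -0.15 and -0.14. Fdps, farnesyl diphosphate synthase, and Pmvk, the next kinase after Mvk, were nearest 0 at -0.05 and -0.02. Several of these genes share sequence with other transcripts, where the counting is uncertain: of the 50-base stretches of Acat2, 39.1% also occur elsewhere, all in Acat3, of those of Fdps 26.19%, mostly in Gm43738, with which it shares 1124 exon bases on the same strand, and of those of Idi1 25.29%, mostly in Gm13502.

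From squalene to lanosterol, the 3 values were negative as well, with a median of -0.22. Fdft1, squalene synthase, measured 231, 172, 159, 129 and 161 CPM in control eyes and 187, 141, 123, 92.1 and 103 CPM in Nrf2 eyes. It was lower in the Nrf2 eye of 5 of 5 mice, though the groups overlapped, and its log2 fold change was -0.43 (SE 0.09, edgeR adjusted p = 0.0557, DESeq2 adjusted p = 0.0108). Of the 50-base stretches of Fdft1, 26.54% also occur in other transcripts. It shares 774 exon bases with Ctsb, cathepsin B, on the opposite strand. Ctsb averaged 1316 CPM in control and 1866 CPM in Nrf2 eyes (log2 fold change 0.48, edgeR adjusted p = 0.0975). Since the strand setting of the counting was not given, reads of these shared bases cannot be assigned to either gene here. Lss, lanosterol synthase, and Sqle, squalene epoxidase, had -0.22 and -0.17, each with mice in both directions.

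From lanosterol to cholesterol, 5 of 8 values were negative and the median was -0.06. Dhcr7, the last reductase, had -0.19 (SE 0.08), and Msmo1, which removes methyl groups from the sterol ring, had -0.15 (SE 0.05) and was lower in 5 of 5 mice, with edgeR adjusted p-values of 0.357 and 0.445. Tm7sf2, a sterol reductase, had -0.13, and Cyp51, the lanosterol demethylase, had -0.03. Nsdhl, a dehydrogenase of the demethylation steps, had 0.00, Hsd17b7, the keto reductase of the same steps, 0.13, and Ebp, a sterol isomerase, 0.20. Sc5d, a sterol desaturase, had the widest spread between mice, from -1.06 in mouse 5 to 0.77 in mouse 1, around a log2 fold change of -0.09 (SE 0.33).

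The sterol enzymes differed between mice as well as between eyes. Against each gene's mean over control eyes, the median log2 level of the 18 enzymes was 0.43 (control) and 0.46 (Nrf2) in mouse 1, and -0.61 and -0.58 in mouse 4. Mouse 1 was thus high and mouse 4 low in both eyes. In mouse 2 the values were -0.02 and 0.07, in mouse 3 they were 0.00 and -0.33, and in mouse 5 they were 0.21 and -0.32. Taken as the median of the within-mouse differences, the 18 enzymes stood at 0.00, 0.10, -0.41, 0.10 and -0.47 in mice 1 to 5, a mean of -0.14 (SD 0.28, n = 5). The lower values came from mice 3 and 5, in each of which 16 of the 18 enzymes were lower in the Nrf2 eye, while in mice 2 and 4 it was 6 of 18. Without mouse 3 the fitted median was -0.02 and without mouse 5 it was -0.04, where each other mouse left out gave -0.17 to -0.15. Without mice 2 and 4 together it was -0.31. Genes of one library share its depth and cells and are not replicates.

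**Figure D3:**
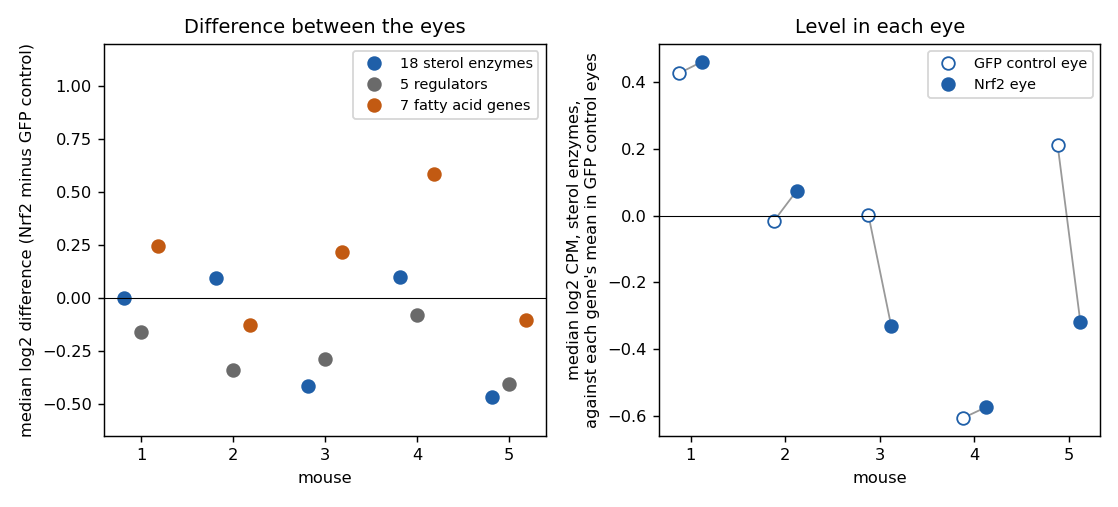
Left, median log2 difference between the eyes of each mouse over the 18 sterol enzymes, 5 regulators and 7 fatty acid genes. Right, median log2 level of the sterol enzymes in each eye against the mean of the control eyes, with lines joining the eyes of a mouse. Mouse 1 is high and mouse 4 low in both eyes, and the sterol enzymes are lower in the Nrf2 eye of mice 3 and 5.

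Of the 7 fatty acid genes, 4 fitted values were positive and 3 negative. Beside the rise of Scd1 and Acss2, the other 5 genes had edgeR adjusted p-values from 0.127 to 0.947 and a median log2 fold change of -0.13. Elovl6, which lengthens palmitate, measured 86.4, 82.7, 103, 88.7 and 94.9 CPM in control eyes and 80.4, 69.6, 81.2, 53.8 and 57.8 CPM in Nrf2 eyes. Every Nrf2 eye lay below every control eye, yet in mouse 1 the within-mouse difference was only -0.03, and the log2 fold change was -0.44 (SE 0.15, edgeR adjusted p = 0.127). Groups of CPM that did not overlap were found for 3 of the 30 genes, against 6.28% of all genes tested: Scd1 and Acss2 on the higher side (3.87% of all genes) and Elovl6 on the lower (2.41%).

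Scd2, the far more abundant stearoyl-CoA desaturase, did not pass the test that Scd1 passed. It measured 935, 818, 814, 610 and 990 CPM in control eyes and 1240, 982, 1156, 957 and 850 CPM in Nrf2 eyes. The Nrf2 eye was higher in mice 1 to 4 and lower in mouse 5, and the log2 fold change was 0.31 (SE 0.16, edgeR adjusted p = 0.365). Whether Scd1 and Scd2 differ from each other in their response was not tested. Fasn, fatty acid synthase, had -0.34 (SE 0.23), Acly, which cleaves citrate to acetyl-CoA, -0.13 (SE 0.24), and Acaca, the carboxylase that makes malonyl-CoA, 0.04 (SE 0.19), each with mice in both directions. Of the 50-base stretches of Acaca, 30.43% also occur in other transcripts, mostly in Gm5182. Acly differed by 0.81 in mouse 4 and by -0.52 to -0.06 in the other mice.

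Set side by side, the median log2 fold change was 0.04 for the fatty acid genes and -0.15 for the sterol enzymes, a difference of 0.19. The fatty acid median is the fitted value of a single gene, Acaca (edgeR adjusted p = 0.947), the middle of the 7. From the within-mouse differences, fatty acid minus sterol was 0.24, -0.22, 0.63, 0.48 and 0.36 in mice 1 to 5, a mean of 0.30 (SD 0.33, n = 5), and it was positive in 4 of 5 mice. Without Scd1 and Acss2 the fitted difference was 0.02 and it was positive in 2 of 5 mice. The fatty acid median itself was -0.04 without mouse 5, 0.23 without mouse 2, 0.10 without mouse 1, 0.07 without mouse 4 and 0.05 without mouse 3. Without mouse 5 the fitted difference was 0.00069, without mouse 3 it was 0.08, and without each other mouse it was 0.24 to 0.38. With the rod covariate the difference was 0.30 and the fatty acid median 0.08, and without mice 2 and 4 they were 0.54 and 0.23. The fatty acid median was 0.01 with the muscle covariate and without the mouse block. The genes were listed with earlier results of these data known, and the difference has no p-value. The regulators had a median of -0.23, and their within-mouse medians were negative in all 5 mice, from -0.41 in mouse 5 to -0.08 in mouse 4. Counting single genes, 8 of 30 went the same way in 5 of 5 mice, against 20.2% of all genes tested. Of these, Scd1 and Acss2 were higher, against 9.23%, and 6 of 30, Fdft1, Msmo1, Srebf1, Srebf2, Scap and Elovl6, were lower in 5 of 5, against 10.9%.

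Levels of different genes were compared as CPM per kilobase of exon in the control eyes. Scd2 was the highest at 152 ± 26.7 (SD, n = 5), followed by Acly at 64.5, Hmgcs1 at 55.1, Srebf1 at 51.3, Insig1 at 47.8 and Fdps at 47.3. At the low end were Tm7sf2 at 5.09, Scd1 and Acss2 at 2.87 each, Stard4 at 1.57 and Acaca at 1.23. Acss2 depends on the length used: per kilobase of its longest transcript (3609 bases, against 10163 bases of all exons together) it stood at 8.08 and was the 25th of the 30 in order, above Tm7sf2 at 7.27 and Hsd17b7 at 6.57. On either length Scd1, at 2.87 and 2.91, was among the 4 lowest and lay far below its relative Scd2. Of the 29 steps between neighbours in the order, 4 exceeded the larger SD of the pair: Scd2 over Acly, Mvk over Lss, Tm7sf2 over Scd1 and Acss2 over Stard4. The other 25 neighbours did not differ beyond their spread. The median per-kilobase level was 18.3 for the sterol enzymes, 30.9 for the regulators and 12.5 for the fatty acid genes.

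**Figure D4:**
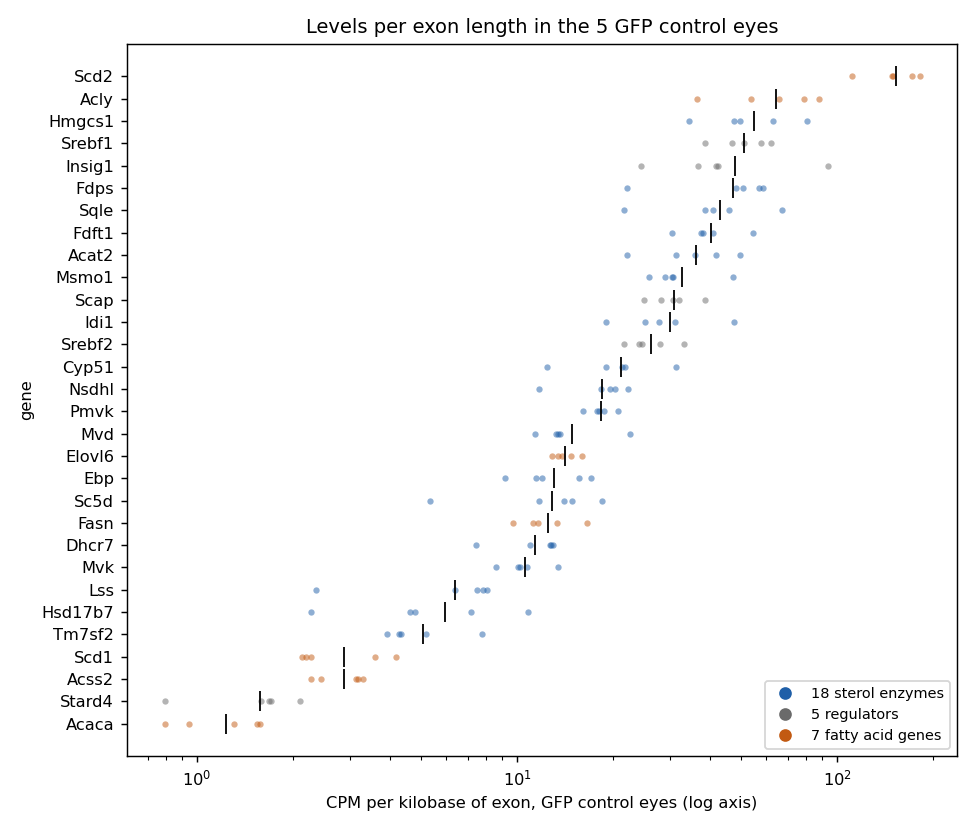
CPM per kilobase of exon of the 30 genes in the 5 GFP control eyes on a log axis, ordered by the mean (bar), with 1 point per eye. Scd2 stands above all others at 152, and Scd1, Acss2, Stard4 and Acaca lie lowest, between 1.23 and 2.87, although Acss2 stands at 8.08 per kilobase of its longest transcript.

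The pathways hold further genes, listed beside the 30 with earlier results in view. Of 11 other sterol and isoprenoid genes, 1 was called higher and none lower, where 6.33% of all genes tested were called in either direction, so the count is near that background. Cyb5r3, the reductase that supplies electrons to sterol and fatty acid desaturation, rose from 181 ± 12.3 to 279 ± 29.1 CPM (log2 fold change 0.61, SE 0.05, edgeR adjusted p = 0.00866). Of 14 other genes of SREBP control and sterol uptake, 1 was called lower and none higher, again near the 6.33% of all genes. Tmem97, a sterol-regulated membrane protein, fell from 41.8 to 27.8 CPM (log2 fold change -0.60, SE 0.06, edgeR adjusted p = 0.0125). The medians of these lists were -0.05 and -0.06.

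Among 34 other fatty acid genes tested, of 35 listed, 5 were called lower, where 2.73% of all genes tested were, and 2 higher, where 3.6% were, with a median of -0.20. Elovl2, which elongates very long polyunsaturated acids, measured 55.4, 53.2, 32.5, 60.4 and 19.96 CPM in control eyes and 8.79, 12.1, 7.75, 6.59 and 2.55 CPM in Nrf2 eyes. These groups did not overlap, and the log2 fold change was -2.60 (SE 0.23, edgeR adjusted p = 0.000979). Gpam, the mitochondrial acyltransferase that begins glycerolipid synthesis, fell from 217 to 76.3 CPM (log2 fold change -1.56, SE 0.15, edgeR adjusted p = 0.00141). Acsl6, an acyl-CoA synthetase of polyunsaturated acids, fell from 570 to 254 CPM (log2 fold change -1.19, SE 0.10, edgeR adjusted p = 0.00189). Fads2, the desaturase at the entry to long polyunsaturated acids, and Mlycd, which degrades malonyl-CoA, fell by 0.62 and 0.60 on the log2 scale, each lower in 5 of 5 mice, with edgeR adjusted p-values of 0.0175 and 0.0237. Slc25a1, the carrier that exports citrate from mitochondria, rose from 82.4 to 142 CPM (log2 fold change 0.74, SE 0.20, edgeR adjusted p = 0.0498). Acss1, the mitochondrial relative of Acss2, rose from 23.7 to 35.2 CPM (log2 fold change 0.59, SE 0.12, edgeR adjusted p = 0.0398). Elovl2, Gpam, Acsl6 and Cyb5r3 stayed called without each mouse in turn, but without mice 2 and 4 together Acsl6 and Cyb5r3 lost their calls (edgeR adjusted p = 0.0769 and 0.22). Leaving out 1 mouse ended the other calls: Tmem97 without mouse 2 or 3 (edgeR adjusted p = 0.0721 and 0.0546), Slc25a1 without mouse 1, 2, 3 or 4 (0.0603 to 0.126), Acss1 without mouse 2, 3, 4 or 5 (0.0762 to 0.117), Fads2 without mouse 1, 2, 3 or 4 (0.0528 to 0.084) and Mlycd without mouse 1, 2, 4 or 5 (0.0596 to 0.0881). These 5 also lost their calls with the rod covariate (0.0624 to 0.219) and without mice 2 and 4 (0.217 to 0.35), and Acss1 and Fads2 without the mouse block (0.235 and 0.0672).

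**Figure D5:**
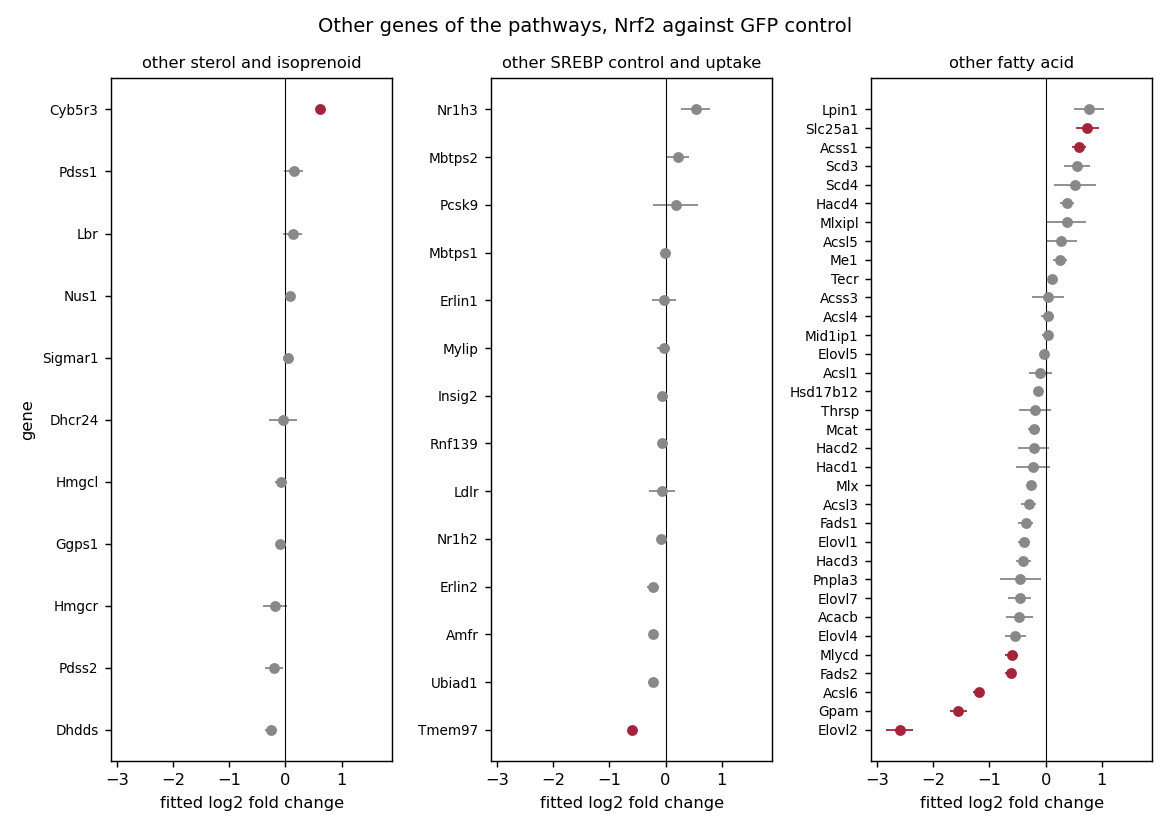
Fitted log2 fold change, Nrf2 against GFP control, with the SE over 5 mice, of the other genes of sterol and isoprenoid synthesis, SREBP control and uptake, and fatty acid metabolism. Red points have an edgeR adjusted p under 0.05: 1 of 11, 1 of 14 and 7 of 34 genes, with Elovl2 farthest from 0 at -2.60.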

How the data were processed

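RNA of 10 eyecups (5 mice, both eyes) was sequenced. Per the labels, the retina was removed, the eyecup was cleaned, and a kit for small inputs amplified the polyA RNA. The authors aligned reads with STAR to mm10 and counted them per Ensembl gene with featureCounts, and ran Salmon 0.8.2 in parallel. The deposited table holds raw counts as whole numbers, and which of these tables they are, the strand setting and the filters were not given in the sources used here. The table held 47729 genes, of which 15729 had no count in any library, and 0 columns of other samples.

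The 30 genes and all lists were chosen with earlier results of these data known. Symbols, positions and exon lengths came from GENCODE M21, which held 47310 (99.1%) of the identifiers. Genes were filtered with filterByExpr, leaving 16362 with 99.8% of the counts, normalized by TMM (factors 0.949 to 1.04) and tested with the quasi-likelihood F test of edgeR 4.0.16 (R 4.3.3) with the mouse as a block, with Benjamini-Hochberg adjustment over all genes tested. The SE is that of within-mouse differences of TMM log2 CPM with a prior count of 2. A count of 0 allows up to 3 counts, 0.110 to 0.244 CPM, covering counting error only. The eyes of a mouse come from the same animal per the labels. Their deviations from the group means correlated with r from 0.186 to 0.707, against a median of -0.0811 between different mice. The p-values rest on the spread of the differences between eyes among these 5 mice, with an estimate of spread that edgeR shares in part across genes. No 2 libraries agreed within sampling noise (smallest chi-square per degree of freedom 34.5).

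Named were all 30 genes, called genes of the other lists (at most 8 a list), Nfe2l2, genes overlapping a listed gene, and markers. Alternatives were no block, DESeq2 1.42.0, other scalings, filters, covariates and left-out mice.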

Additional observations from a re-analysis of the deposited data

Results flagged for a closer look

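In 6 of 66 groups of 5 eyes, 1 library lay far from the others (gap over 0.71 of the group's range, Dixon's critical value), where chance gives about 3.3. Values are log2 CPM. In the GFP control eye of mouse 4, Fdps stood at 6.551 (other control eyes 7.705 to 7.986), Lss at 4.683 (6.073 to 6.459) and Dhcr7 at 5.451 (6.055 to 6.249). In the GFP control eye of mouse 1, Mvd stood at 5.375 (4.452 to 4.71). In the Nrf2 eye of mouse 1, Insig1 stood at 8.375 (other Nrf2 eyes 6.215 to 6.835) and Srebf2 at 7.722 (7.156 to 7.287). None of these genes was called, and mice 1 and 4 are those whose sterol enzymes were highest and lowest in both eyes.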

How the results depend on the processing

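Without the replicate block, which sets the pairing by mouse, 755 genes were called in place of 1036 (687 shared), 2 of the 30 genes in place of 3, and none of them lower in place of 1. DESeq2 called 1812 genes and 5 of the 30, of which 3 lower and 1 a sterol enzyme. With rod markers as a covariate 441 genes were called, 1 of the 30 (Acss2, so 1 higher, 1 fatty acid gene and 0 lower). With muscle markers 2 of the 30 were lower, of which 1 a sterol enzyme (Fdft1). Without mice 2 and 4, an alternative chosen after seeing the data, 146 genes were called, 0 of the 30, so 0 higher, 0 lower and 0 fatty acid genes, and fatty acid minus sterol was 0.54. Leaving out each mouse in turn gave 584 to 857 genes and 0 of the 30 lower, since Scap lost its call each time.

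Of single genes near 0, Pmvk turned positive with upper-quartile scaling (0.00017) and the rod covariate (0.019), and Fdps with the muscle covariate (0.00080). Nsdhl turned negative with no filter (-0.00012), the rod covariate (-0.068) and without mice 2 and 4 (-0.13), as did Ebp (-0.0011 with the rod covariate, -0.080 without these mice). Leaving out each mouse in turn moved the following log2 fold changes across 0: Pmvk from -0.040 to 0.11, Fdps from -0.15 to 0.14, Cyp51 from -0.084 to 0.13, Tm7sf2 from -0.28 to 0.080, Nsdhl from -0.018 to 0.11, Sc5d from -0.27 to 0.15, Acly from -0.32 to 0.011 and Acaca from -0.094 to 0.23. The cause of these changes was not tested. None of the other 21 listed genes changed direction under the alternatives run.

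The least abundant of the 30 genes, Stard4, averaged 8.77 CPM in control eyes, above the highest floor of 0.244 CPM. The number of mice, the strand setting that was not given and the additional vector in the Nrf2 eyes, which cannot be told apart from Nrf2 itself, limit the comparison.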
